A study of Mus musculus with 12 samples.

Results

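Amino acid transporter genes of mouse extraembryonic endoderm cells were followed through BMP4 treatment and through a sort on an Afp reporter. The members are the genes whose name in the scanner table begins with Slc1a, Slc3a, Slc6a, Slc7a, Slc36a, Slc38a or Slc43a and ends in a number, each read from its brightest probe. They are 50 of 31490 names in the table and have 83 probes. The cells were XEN cells, stem cells of the extraembryonic endoderm, of 1 line carrying an Afp::GFP transgene (green fluorescent protein under control of the alpha-fetoprotein gene), grown in N2B27, a serum-free medium. The 4 groups of 3 arrays each were XEN cells with no BMP4 and no sort, BMP4-treated cells with no sort, and the GFP negative and GFP positive cells that flow sorting took from BMP4-treated cultures. All groups carry the transgene, and the sort separates cells by the reporter, not by any transporter. The labels used here state no BMP4 dose or duration.

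Solute carriers of these families move amino acids across the plasma membrane or the lysosomal membrane. The Slc7 light chains work as exchangers only when paired with a heavy chain, Slc3a2 or Slc3a1, that carries them to the membrane. Slc1, Slc6 and Slc38 carriers draw on sodium gradients, Slc36 carriers on protons, and Slc43 carriers are facilitators. The visceral endoderm, the epithelium around the early embryo, takes up and breaks down maternal protein and passes nutrients to the embryo. When amino acids run short, cells translate the transcription factor ATF4, which binds C/EBP-ATF response elements and raises many transporter genes.

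Promoter windows of 3 members are printed. The light chain genes Slc7a9 and Slc7a7 were chosen because they rose most after BMP4. Slc1a4 was chosen as the only member lower after BMP4, among those with a window, that holds the core of that response element. Each window is the stretch from 250 bases before to 50 bases after a gene start in RefSeq (GRCm38.p6), read 5′ to 3′ along the gene. Capitals mark matches to TGATGNAA on either strand. The Slc7a9 window is chr7:35448842-35449141 (plus strand), that of Slc7a7 is chr14:54417895-54418194 (minus strand) and that of Slc1a4 is chr11:20332664-20332963 (minus strand).
Slc7a9: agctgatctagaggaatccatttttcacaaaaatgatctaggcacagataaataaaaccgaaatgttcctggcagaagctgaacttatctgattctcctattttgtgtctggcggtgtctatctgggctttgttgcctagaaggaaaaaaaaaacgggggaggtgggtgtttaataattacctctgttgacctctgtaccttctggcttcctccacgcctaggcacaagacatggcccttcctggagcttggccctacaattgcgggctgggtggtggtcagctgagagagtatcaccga
Slc7a7: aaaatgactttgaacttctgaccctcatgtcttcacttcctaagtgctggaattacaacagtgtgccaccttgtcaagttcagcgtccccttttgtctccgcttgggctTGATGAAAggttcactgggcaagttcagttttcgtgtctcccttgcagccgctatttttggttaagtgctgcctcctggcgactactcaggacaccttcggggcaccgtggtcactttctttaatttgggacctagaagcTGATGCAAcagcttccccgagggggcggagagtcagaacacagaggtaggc
Slc1a4: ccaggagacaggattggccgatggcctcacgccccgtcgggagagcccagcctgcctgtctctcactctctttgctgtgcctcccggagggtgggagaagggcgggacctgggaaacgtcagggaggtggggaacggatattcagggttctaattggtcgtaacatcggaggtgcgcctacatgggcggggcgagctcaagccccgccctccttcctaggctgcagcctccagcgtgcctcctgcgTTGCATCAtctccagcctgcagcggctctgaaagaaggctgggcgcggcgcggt
RefSeq windows were found for 32 members, 14 of them tested. Slc7a5 and Slc6a15, both lower after BMP4, had none and were not searched. A match stood in 3 members, 2 of them tested, and in 3.97% of all 32851 windows and 4.51% of the 27025 genes with a window. The third member with a match was the cystine and glutamate exchanger gene Slc7a11, with 2 matches, which was not detected here. The matches of Slc7a7 and Slc1a4 were found in genes that moved in opposite directions. The printed windows are the first of 5 for Slc7a7 and the first of 2 for Slc7a9. Another Slc7a7 window overlaps the printed one and holds a match at the same site as the second match printed. Neither Slc7a9 window held any. A match is a run of letters and no evidence of binding.

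Unsorted arrays (6) had a median signal of 53.4 to 60.9 and sorted arrays (6) one of 22.6 to 32.4, and 13105 to 14737 of 45281 probes were detected per array (detection p under 0.01). Values are normalized log2 signal of 1 probe, group values are mean ± SD (n = 3 arrays), and differences are log2 ± SE from limma, called at an adjusted p under 0.05 over 10597 genes. Replicates are not said to be separate cultures, so each p measures only the spread between arrays, and their number limits the precision. In bulk RNA, fewer cells of a type and less RNA per cell cannot be told apart. Afp was higher in the GFP positive fraction (9.58 ± 0.17) than in the GFP negative one (7.35 ± 0.13). Of 9 XEN and primitive endoderm markers all 9 were detected, while 0 of 9 fibroblast, 0 of 8 mesoderm, 1 of 8 neural, 3 of 10 pluripotency and 2 of 10 trophoblast markers were detected on any array, Pou5f1, Nanog and Eomes not among them. The summed signal of 10 visceral endoderm markers was 6391.2 to 8110.3 untreated and 12133.9 to 13994.5 after BMP4, and that of 8 parietal endoderm markers was 49648.1 to 55996.9 and 23639.1 to 29918.2. Of the parietal list, Snai1 (9.13 untreated, 9.81 after BMP4) and Pth1r (11.55 and 11.89) had higher means after BMP4, and its other members lower ones. Of the visceral list, Ttr (12.55 and 12.33) had a lower mean after BMP4, and its other members higher ones. Between the GFP negative and GFP positive arrays the visceral sum was 18118.5 to 20694.7 against 13340.6 to 20731.9. All these sums are of scanner signal before normalization and also follow the brightness of an array. GFP positive replicate 3 had the lowest median signal (22.6). Normalized means of the GFP negative and GFP positive groups were 8.63 and 7.86 for Cubn, 10.38 and 9.60 for Lrp2 and 12.26 and 11.77 for Amn, receptors of protein uptake. Apoe, Hnf4a and Rbp4 of the visceral list also had lower means in GFP positive cells. Its other members, Afp, Apoa1 (7.55 and 8.16), Ihh (9.44 and 9.61) and Ttr (13.1 and 13.23), had higher ones. The part of these markers in the transporter differences of either comparison was not tested.

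Of the 50 genes, 19 passed the detection filter (at least 3 arrays) and were tested, 30 were detected on no array, and Slc43a3, a nucleobase transporter gene, was detected on 1 GFP negative array. Among the 19, 9 were detected on all 12 arrays and 8 were undetected in at least 1 group, so counts over the 19 describe genes that were visible somewhere. Of 13 Slc7 genes 6 were tested, of 17 Slc6 genes 5, of 5 Slc38 genes 3, of 7 Slc1 genes 2, of 3 Slc36 genes 2, of 2 Slc3 genes 1 and of 3 Slc43 genes 0. The undetected genes included carriers that many cultured cells use: the arginine and lysine transporter gene Slc7a1 (2 probes), the cystine exchanger gene Slc7a11 (5 probes), the glutamine exchanger gene Slc1a5 (3 probes) and Slc38a1 (1 probe). They also included carriers of neurons and of specialised epithelia, such as the monoamine transporter genes Slc6a2, Slc6a3 and Slc6a4, and Slc3a1, the heavy chain partner of Slc7a9. Signals of the 31 untested genes ran from 5.5 to 68.8 on sorted and from 31.0 to 78.9 on unsorted arrays. Not well above background is all that can be said of them, since a probe can also fail.

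**Figure D1:**
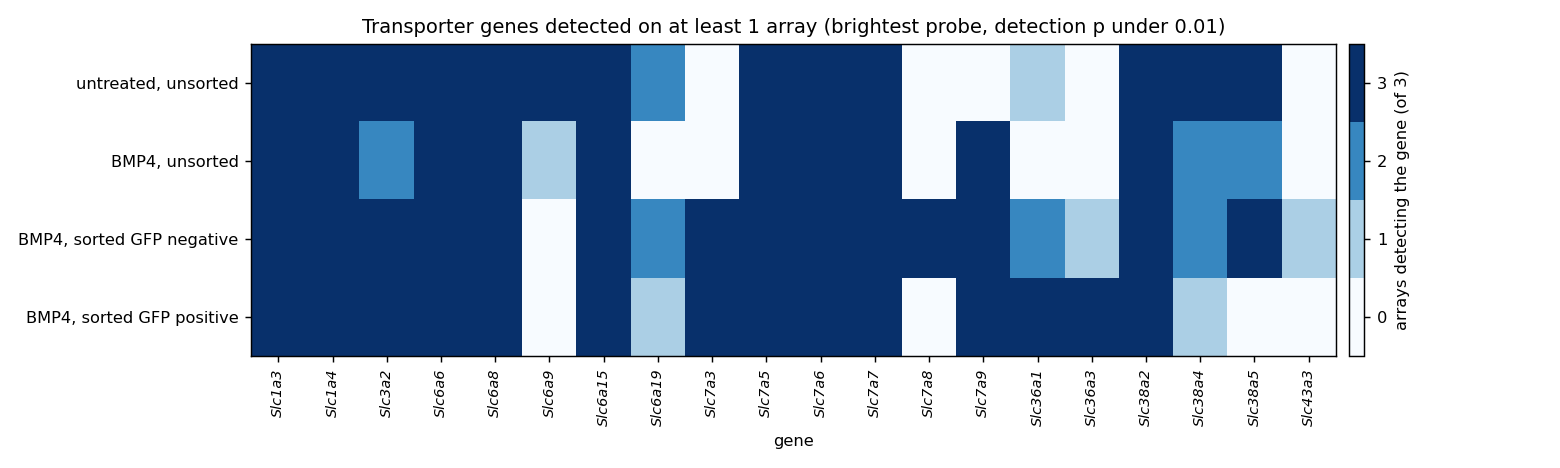
Number of arrays out of 3 (colour) that detected a gene (columns) in each group (rows), for the 19 tested transporter genes and Slc43a3, at the brightest probe and a detection p under 0.01. Slc7a9 was detected in the 3 BMP4 groups and not in untreated cells, Slc7a8 in the GFP negative fraction only, and Slc7a3 in both sorted fractions only.

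The first comparison asked how BMP4 changed the transporters of unsorted cells. Of the 19 tested genes 9 were lower (28.7% of all genes tested were), 4 were higher (30.2% of all genes) and 6 were not called. In all 68.4% were called against 58.9% of all genes tested, a share not far from that background. The median difference was -0.20, against 0.026 over all genes. The arrays of both groups did not overlap in 13 of the 19, where 61.3% of all genes did the same. Changes of at least 2-fold were 6 falls and 1 rise. The share of all genes that changed as much is not given here, so this split is not read as a result about transporters. Slc6a9 among the falls, and Slc7a9, the rise, passed the filter only through the side where they are high.

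The rise was Slc7a9, the light chain that exchanges cystine and cationic amino acids for neutral ones at the apical face of kidney and gut epithelium. Its probe read 4.68, 4.56 and 4.82 on untreated arrays and 7.20, 7.25 and 7.10 on BMP4 arrays. In the sorted fractions it read 8.61, 8.59 and 8.59 in GFP negative and 8.73, 8.52 and 8.40 in GFP positive cells. Untreated arrays were all below detection and every BMP4-treated array was above it. Slc7a9 thus passed the filter through treated arrays alone, where it is high, so a rise was bound to show. The level was at least 3.27-fold higher after BMP4, the bright mean set against the lowest signal that counts as detected on the dim arrays (fitted difference 2.50 ± 0.09, adjusted p = 8.47e-11). A second kept probe of Slc7a9 gave 2.33, and without background correction the brightest probe gave 1.59. Slc7a7, the light chain that exports cationic amino acids in exchange for neutral ones with sodium, went from 7.08 ± 0.10 to 7.94 ± 0.19, a difference of 0.86 ± 0.10 (adjusted p = 8.8e-06), and its second kept probe gave 0.85. Both sorted fractions stayed at the treated level of Slc7a7, 7.97 ± 0.12 and 7.91 ± 0.11.

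Other light chain genes fell. Slc7a5, which imports large neutral amino acids such as leucine, read 10.98, 11.07 and 11.18 untreated and 9.95, 10.08 and 9.89 after BMP4. The GFP negative arrays gave 9.94, 10.25 and 10.11 for Slc7a5 and the GFP positive ones 9.57, 9.65 and 9.82. All 9 arrays of treated cells lay below all untreated arrays, and the BMP4 difference was -1.11 ± 0.10, 2.16-fold (adjusted p = 4.25e-07). Slc7a6, a paralog of Slc7a7 with the same kind of exchange, read 9.71, 9.52 and 9.54 untreated, and 8.23, 8.66 and 8.40 after BMP4. Sorted cells were lower still, at 8.13, 7.92 and 7.80 in the GFP negative and 7.78, 7.54 and 7.76 in the GFP positive fraction. Slc7a6 fell by 1.16 on the log2 scale after BMP4 (SE 0.12, adjusted p = 1.9e-06). Slc7a6os, an unrelated gene on the opposite strand beside Slc7a6 and no transporter, differed by -0.06 after BMP4 (adjusted p = 0.546). Slc7a6os was called lower in GFP positive than in GFP negative cells (-0.30, adjusted p = 0.0389). It was also called lower in sorted than in unsorted BMP4 cells (-0.79, adjusted p = 2.38e-07).

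The heavy chain gene Slc3a2, common partner of Slc7a5, Slc7a6, Slc7a7 and Slc7a8, was close to the detection limit on these arrays. It read 6.11, 5.98 and 5.97 untreated, 5.77, 5.92 and 5.41 after BMP4, 5.96, 6.33 and 6.36 in GFP negative and 6.11, 6.09 and 6.04 in GFP positive cells. BMP4 arrays lay just below untreated ones, with 2 of 3 detected, and the difference was -0.32 ± 0.13 (adjusted p = 0.0447). Slc3a2 did not pass once any of these arrays was left out: untreated replicate 1 (adjusted p = 0.13), 2 (0.0704) or 3 (0.0656), BMP4 replicate 1 (0.0532) or 3 (difference -0.17, adjusted p = 0.217), or any GFP positive replicate (0.0538 to 0.0561). Its adjusted p spanned 0.014 to 0.217 under the alternatives. Slc3a2 has 1 probe on the array, so its level cannot be checked against another.

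**Figure D2:**
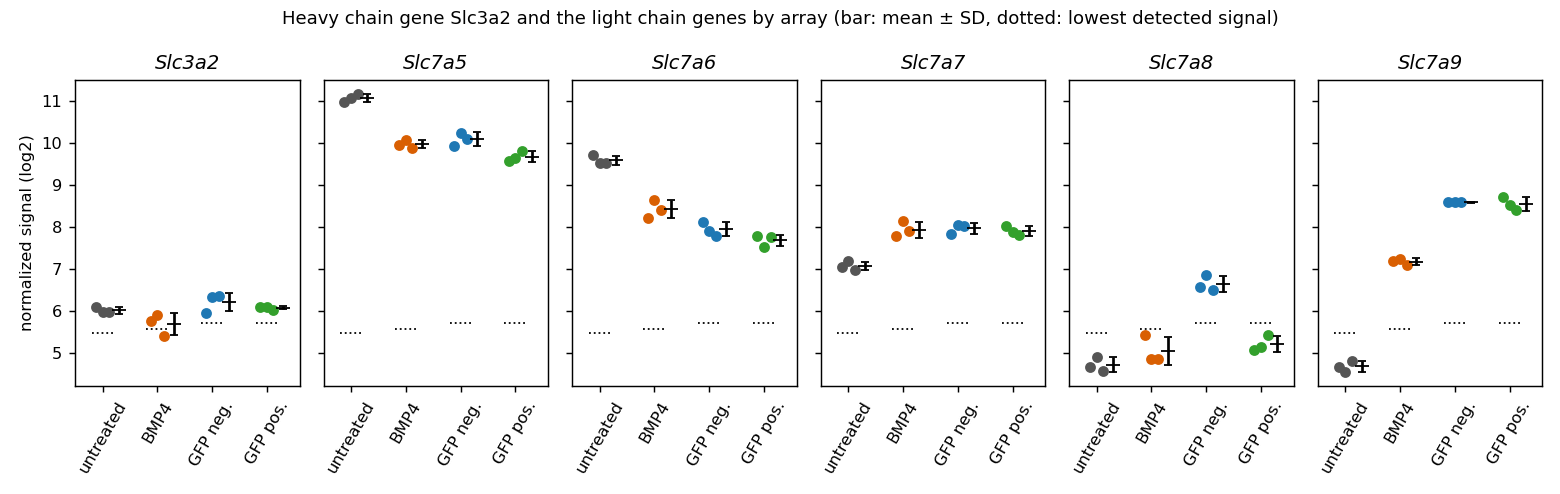
Normalized log2 signal (vertical axis) of the heavy chain gene Slc3a2 and 5 light chain genes on each array, by group, with mean ± SD (n = 3) beside the points and the mean lowest detected signal as a dotted line. Slc7a9 and Slc7a7 were higher and Slc7a5 and Slc7a6 lower on all treated arrays than on untreated ones, and only the GFP negative arrays of Slc7a8 lay above the dotted line. Panels show different probes, whose levels cannot be compared with each other.

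Sodium-coupled carriers supplied the other falls of at least 2-fold. Slc6a15, a carrier of branched-chain amino acids and proline, read 9.09, 9.17 and 9.31 untreated and 7.48, 7.58 and 7.53 after BMP4, with no overlap. In the sorted fractions it read 8.46, 8.76 and 8.69 (GFP negative) and 8.38, 8.81 and 8.64 (GFP positive), between the untreated and the unsorted BMP4 levels. The BMP4 difference of Slc6a15 was -1.66 ± 0.11 (3.15-fold, adjusted p = 2.73e-08), the largest fitted fall among the 19.

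Slc38a5, which carries glutamine, asparagine and histidine with sodium, read 7.17, 7.05 and 6.91 untreated and 5.48, 5.85 and 5.87 after BMP4, 2 of these 3 arrays detecting it. It read 6.08, 6.03 and 6.14 in GFP negative and 5.37, 5.39 and 5.46 in GFP positive cells, where no array detected it. Untreated arrays were the highest and GFP positive arrays the lowest. The BMP4 difference of Slc38a5 was -1.31 ± 0.10 (adjusted p = 1.37e-07). Slc6a9, a glycine transporter gene, read 6.62, 6.96 and 7.15 untreated and 5.48, 5.61 and 5.81 after BMP4, with 1 BMP4 array detecting it. The sorted arrays, at 5.56, 5.18 and 5.26 (GFP negative) and 4.77, 4.62 and 4.68 (GFP positive), did not detect Slc6a9. Slc6a9 passed the filter only through the untreated arrays, where it is high, so a fall was bound to show, and its fitted BMP4 difference of -1.28 ± 0.13 is set against a group mostly at background.

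Slc1a3, a glutamate and aspartate carrier best known from astrocytes, read 8.47, 8.46 and 8.32 untreated and 7.42, 7.39 and 7.21 after BMP4. It read 8.18, 7.98 and 7.95 in GFP negative and 7.75, 7.50 and 7.59 in GFP positive cells. Untreated arrays were above all others, and the BMP4 difference of Slc1a3 was -1.08 ± 0.09 (adjusted p = 3.17e-07). Slc1a4, an exchanger of alanine, serine and cysteine whose promoter match is printed above, differed by -0.54 ± 0.09 (adjusted p = 0.000198). Slc38a2, the amino acid starvation-induced sodium-coupled carrier of small neutral amino acids, went from 10.80 ± 0.10 to 10.49 ± 0.23, a difference of -0.31 ± 0.12 (adjusted p = 0.0472). Slc38a2 did not pass once untreated replicate 1 (0.14) or 2 (0.096), BMP4 replicate 2 (difference -0.18, adjusted p = 0.219), GFP negative replicate 1 (0.0574) or 3 (0.0537) or GFP positive replicate 1 (0.0543) was left out. Its adjusted p spanned 2.52e-05 to 0.219 under the alternatives. The second kept probe of Slc38a2 gave a larger fall, -0.74 (adjusted p = 2.16e-05 over all kept probes).

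Few of the remaining carriers changed. Slc6a6, which carries taurine, rose by 0.25 ± 0.07 (adjusted p = 0.01), and Slc36a3 was called higher by 0.52 ± 0.08 with every untreated and BMP4 array under the detection limit, which leaves no fold to state. The creatine transporter gene Slc6a8 differed by -0.15 ± 0.08 (adjusted p = 0.125) although detected on all 12 arrays. The other 5 not called, Slc6a19, Slc7a3, Slc7a8, Slc36a1 and Slc38a4, ran from -0.20 to 0.33, each undetected on some array of both groups or, for Slc38a4, on 1 BMP4 array.

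**Figure D3:**
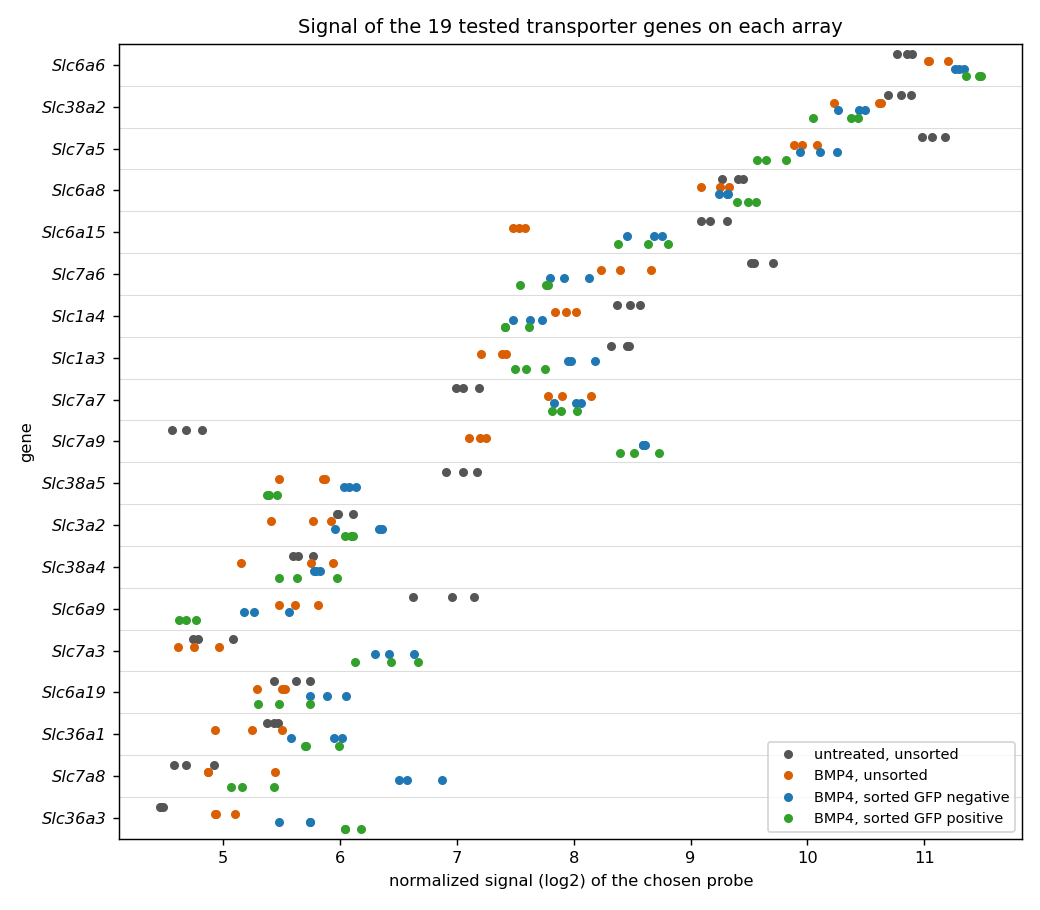
Normalized log2 signal (horizontal axis) of the 19 tested transporter genes (rows) on each of the 12 arrays, coloured by group (3 points per group). Untreated arrays stand to the right of all treated arrays for Slc7a5, Slc7a6, Slc1a3, Slc1a4, Slc6a9, Slc6a15, Slc38a2 and Slc38a5 and to the left for Slc7a7, Slc7a9, Slc6a6 and Slc36a3. Rows are different probes and are not compared with each other.

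The second comparison asked how the Afp::GFP positive and negative fractions of treated cells differed. Of the 19 genes 5 were lower in GFP positive cells (2.32% of all genes tested were), 1 was higher (3.07% of all genes) and 13 were not called. In all 31.6% were called against 5.39% of all genes tested. Of these 6 calls, Slc7a8 and Slc36a3 passed the filter only through the fraction where they were higher, and Slc6a9 was detected in neither fraction. Of the 15 genes detected on at least 6 arrays 3 were called, all lower. The share called among all 9747 genes under that filter is not given here, so this count has no background beside it. The median difference was -0.11, against -0.007 over all genes. The arrays of the fractions did not overlap in 10 of 19, where 27.4% of all genes did the same. These 10 include Slc7a8 and Slc36a3, which passed the filter only through the fraction where they were higher, and Slc6a9, detected in neither fraction.

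Slc7a8, a light chain that exchanges neutral amino acids and sits basolaterally in epithelia, differed most. Its probe read 6.57, 6.87 and 6.50 in GFP negative and 5.07, 5.16 and 5.43 in GFP positive cells, 4.68, 4.92 and 4.58 untreated and 5.44, 4.87 and 4.87 after BMP4. Only the 3 GFP negative arrays detected it, and it passed the filter through them alone, so a difference was bound to show. It was at least 1.91-fold lower in GFP positive cells (fitted difference -1.43 ± 0.16, adjusted p = 0.000143). No unsorted BMP4 array detected Slc7a8, and another of its probes, detected on 2 arrays, was not kept.

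The other calls were smaller. Slc38a5 was at least 1.29-fold lower in GFP positive cells (fitted difference -0.67 ± 0.10, adjusted p = 0.00152). Slc7a5 and Slc1a3 each differed by -0.42 (SE 0.10 and 0.09, adjusted p = 0.0228 and 0.0156). Slc6a9 was called lower, but neither fraction detected it. Slc36a3 was higher by 0.43 ± 0.08 (adjusted p = 0.00919), detected on 3 GFP positive arrays and 1 GFP negative array; it passed the filter only through the GFP positive arrays, where it is high. Most of these calls were lost when 1 of certain arrays was left out, which also leaves fewer arrays to the test. Over the alternatives the difference stayed at -0.50 to -0.34 for Slc7a5 and at -0.49 to -0.35 for Slc1a3. Slc7a5 did not pass when GFP negative replicate 2 (adjusted p = 0.115) or 3 (0.0754) or GFP positive replicate 1 (0.11) or 2 (0.0799) was left out; its adjusted p spanned 0.00651 to 0.115. For Slc1a3 this held of GFP negative replicate 1 (0.0682) and GFP positive replicate 2 (0.072), and of scale normalization (0.084). For Slc6a9 it held of GFP negative replicate 1 (0.0564) and GFP positive replicate 2 (0.0558), and for Slc36a3 of GFP positive replicate 1 (0.0524) and of scale normalization (0.0857). Without GFP negative replicate 1 or GFP positive replicate 2 the number of genes called lower was 3, and without GFP positive replicate 1 limma called 0 higher, with 1 at an unadjusted p under 0.05. Slc6a19, an apical carrier of neutral amino acids, was not called (-0.39 ± 0.12, adjusted p = 0.0907) but passed without GFP positive replicate 2 (adjusted p = 0.0406).

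Slc7a9, the carrier with the largest BMP4 rise, differed by -0.05 ± 0.09 between the fractions (adjusted p = 0.826), Slc7a7 by -0.06 ± 0.10 (adjusted p = 0.81) and Slc6a15 by -0.02 ± 0.11 (adjusted p = 0.943). The difference between the BMP4 and the GFP comparison, which share no array, was itself tested and called for 11 of the 19 genes, 57.9% against 47.9% of all genes. In 8 the GFP difference was the higher (23.4% of all genes) and in 3 the lower (24.5% of all genes). The genes called include Slc7a9, Slc7a8 and Slc6a9, which passed the filter only through groups where they are high. For these a difference was bound to show. The difference between both comparisons was called for Slc7a9 (adjusted p = 4.75e-09), with no size given since untreated arrays did not detect Slc7a9. It was -0.93 ± 0.15 for Slc7a7 (adjusted p = 0.000172) and 1.64 ± 0.15 for Slc6a15 (adjusted p = 1.86e-06).

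**Figure D4:**
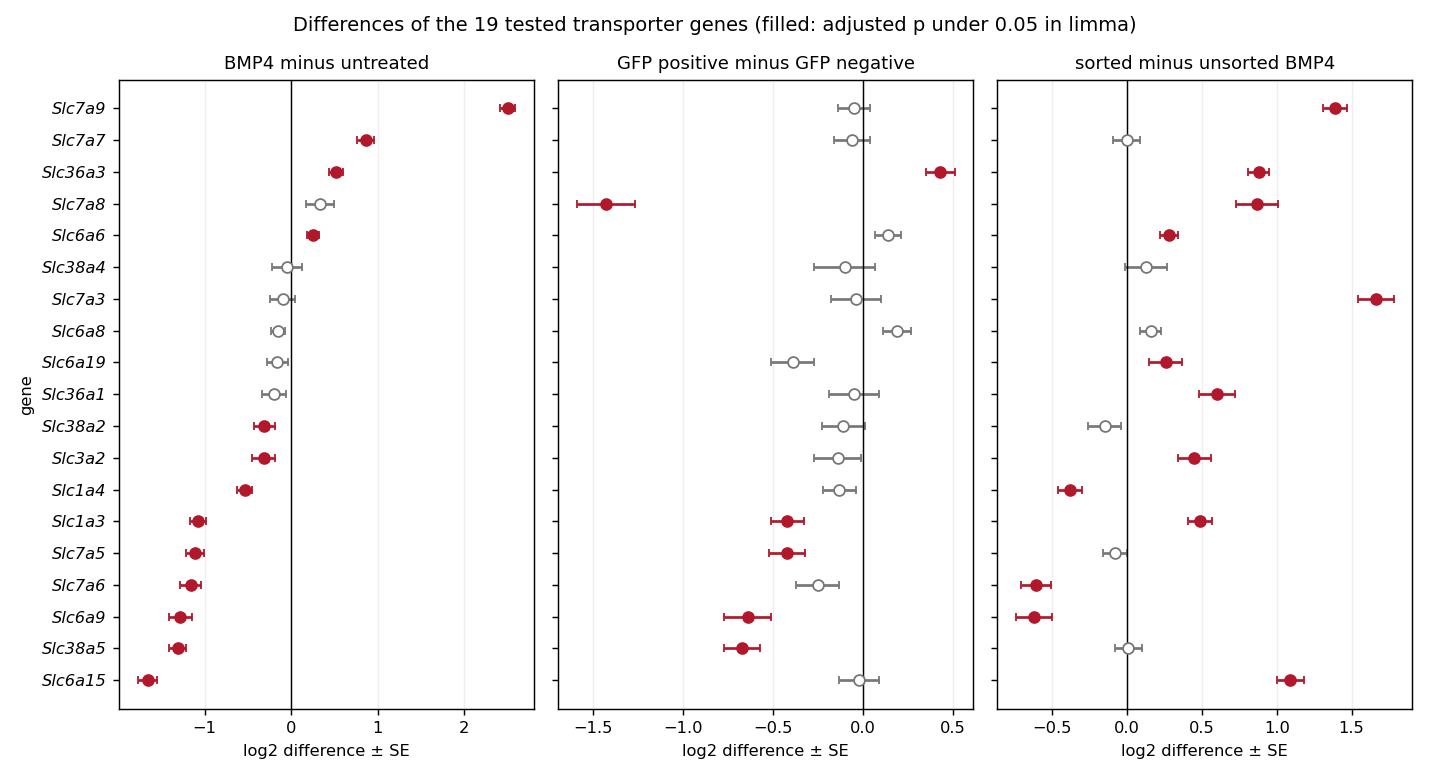
Log2 differences ± SE (horizontal axes) of the 19 tested transporter genes (rows, ordered by the BMP4 difference) in 3 comparisons, filled where the adjusted p in limma was under 0.05. BMP4 differences ran from -1.66 (Slc6a15) to 2.50 (Slc7a9), GFP differences from -1.43 (Slc7a8) to 0.43 (Slc36a3), and sorted minus unsorted differences from -0.62 (Slc6a9) to 1.66 (Slc7a3); all are fitted values, some with a group below detection (Slc7a9, Slc7a8, Slc6a9 and Slc7a3).

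Sorted fractions were also set against the unsorted BMP4 culture, which shares its arrays with the first comparison. Sort, fraction and array set cannot be told apart here, and 70.1% of all genes tested were called. Of the 19 transporter genes 10 were higher (34.8% of all genes were) and 3 lower (35.4% of all genes), 68.4% in all. Among those higher, Slc7a3, Slc7a8, Slc36a1, Slc36a3 and Slc6a19 were detected on no unsorted BMP4 array and passed the filter only through sorted arrays. The arrays of sorted and unsorted cells did not overlap in 10 of the 19, where 59.5% of all genes did the same. Of the calls over all genes 49.6% were higher, and 37.4% with scale normalization, which moved the median of all genes from -0.016 to -0.14 and gave 9 transporter genes higher and 5 lower. The unsorted BMP4 mean lay between the means of both fractions in 3 of the 19 genes, Slc7a5, Slc7a7 and Slc38a5. Slc7a3, an arginine and lysine carrier, was detected in sorted cells only. It read 4.74, 5.08 and 4.78 untreated and 4.61, 4.75 and 4.96 after BMP4, all undetected, against 6.63, 6.42 and 6.30 in GFP negative and 6.67, 6.44 and 6.13 in GFP positive cells, all detected. Slc7a3 passed the filter through the sorted arrays alone, so a difference was bound to show. It was at least 1.82-fold higher in sorted cells (fitted difference 1.66 ± 0.12, and 0.97 to 1.75 over the alternatives). Before normalization its signal ran from 53.9 to 68.1 on unsorted and from 55.4 to 118.6 on sorted arrays, whose median signal was lower. Another probe of Slc7a3, detected on 1 array, was not kept. Slc7a9 was higher by 1.39 ± 0.08, but its second kept probe gave 0.60. Slc6a15 was higher by 1.09 ± 0.09 (adjusted p = 2.8e-07), while Slc7a6 differed by -0.61 ± 0.10 (adjusted p = 0.000136). The 2 kept probes of Slc38a2 disagreed in sign, at -0.15 for the brightest and 0.75 for the other. Slc6a19, detected on no unsorted BMP4 array, was called at least 1.1-fold higher (adjusted p = 0.0404), and did not pass when untreated replicate 1 (0.05), BMP4 replicate 1 (0.182) or 3 (0.0577), GFP negative replicate 2 (0.0587) or 3 (0.083) or GFP positive replicate 2 (0.0819) or 3 (0.0527) was left out. Slc6a8, at 0.16 ± 0.07 (adjusted p = 0.05, not called), passed without untreated replicate 1 (adjusted p = 0.0455), BMP4 replicate 1 (0.0236) or GFP positive replicate 2 (0.0397), and Slc38a2 passed without BMP4 replicate 2 (difference -0.28, adjusted p = 0.0321).

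Genes of the same families stood in the table under older names and are not among the 50. Slc38a9, a lysosomal arginine sensor listed under RIKEN clone names, differed by -0.44 (adjusted p = 0.00101) after BMP4 and was higher by 0.80 in sorted cells. Slc38a10 differed by -0.41 (adjusted p = 0.0216) after BMP4 and was higher by 1.31 in sorted cells. Neither was called between the fractions (adjusted p = 0.457 and 0.943).

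Genes that respond to amino acid supply or use amino acids were read from lists alongside the transporters. Of 21 tested amino acid response genes 14 were lower and 3 higher after BMP4, with a median difference of -0.39; 81.0% were called, against 58.9% of all genes. The list holds the stress regulator gene Nupr1 (-5.55 ± 0.17), the branched-chain aminotransferase gene Bcat1 (at least 16.5-fold lower), the transcription factor gene Atf5 (-1.85 ± 0.10), the unfolded protein response gene Herpud1 (-1.55 ± 0.10) and the growth arrest gene Gadd45a, which rose by 1.79 ± 0.07. Bcat1 passed the filter through the untreated arrays alone, where it is high, so a fall was bound to show. Atf4 itself, which is controlled largely in translation, differed by -0.47 ± 0.07. Between the fractions 1 of the 21 was lower and 3 were higher (3.07% of all genes were higher and 2.32% lower). The genes Asns, Chac1, Ctns, Gpt2 and Sesn2 each stand in more than 1 list.

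In the other lists calls went both ways, to be read against 30.2% higher, 28.7% lower and 58.9% in all over the genes tested. Of 18 aminoacyl-tRNA synthetase genes 6 were lower and 3 higher after BMP4 and 9 were not called, with a median of -0.08. They include Wars (-1.20 ± 0.09), Farsa (at least 1.38-fold lower) and Qars (0.73 ± 0.06). Of 19 genes of amino acid sensing by mTORC1, 8 were higher and 7 lower (78.9%). The Rag GTPase gene Rragb (1.51 ± 0.11) and the arginine sensor family gene Castor2 (1.51 ± 0.09) rose, and the leucine sensor family gene Sesn1 (-1.35 ± 0.08) and the folliculin gene Flcn (-1.06 ± 0.08) fell. Of 15 genes of serine, glycine, proline and asparagine synthesis 4 were higher and 6 lower after BMP4 (66.7%), from Gpt2 (-0.82) to Shmt1 (0.89). Of 9 genes of glutathione synthesis and cystine handling 5 were higher and 2 lower (77.8%): the glutamate-cysteine ligase subunit gene Gclm rose by 1.00 ± 0.10 and glutathione synthetase (Gss) by 0.97 ± 0.09, and the lysosomal cystine exporter gene Ctns and the glutathione-degrading enzyme gene Chac1 fell, by 1.15 and 1.04. Of 10 tested carriers of amino acids and peptides outside the 7 families 5 were lower and 2 higher (70.0%). The aromatic amino acid transporter gene Slc16a10 rose by 1.45 ± 0.08, with 1 of 3 untreated arrays detecting it. Slc25a29, a mitochondrial carrier of basic amino acids, was at least 1.83-fold lower. It passed the filter through the untreated arrays alone, where it is high, so a fall was bound to show.

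**Figure D5:**
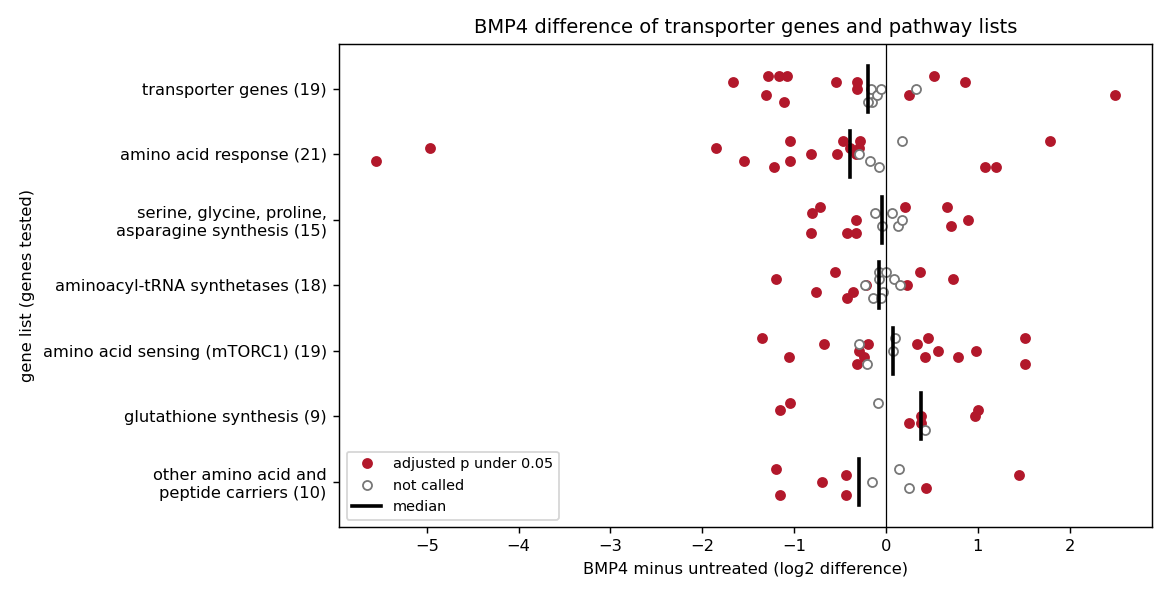
BMP4 minus untreated log2 differences (horizontal axis) of the tested transporter genes and of 6 lists (rows, with the number of genes tested), filled where the adjusted p was under 0.05, with the median as a bar. Medians ran from -0.39 (amino acid response) to 0.38 (glutathione synthesis), and the 2 points farthest left are Nupr1 and Bcat1.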

How the data were processed

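RNA of 12 XEN cell samples was labelled as biotin cRNA and read on Illumina MouseWG-6 V2.0 arrays, per the labels and the file headers. BeadStudio 3.4.0 wrote the scanner table with no normalization, per the file headers. For each probe it holds, as deposited, the mean bead signal, an intensity, and a detection value, a fraction equal to 1 minus the detection p. A further deposited table gives the authors' processed values (log2) for 20178 probes; lumi is named in the submitters' processing notes, with its steps not given in the sources used here. No table used here ties its identifiers to genes, so it was not used.

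Here limma 3.58.1 (R 4.3.3) subtracted background by normexp, with the noise level taken from detection p and an offset of 16, then applied quantile normalization and log2. A probe needed a detection p under 0.01 on 3 or more arrays (15448 of 45281 passed), and each gene was read from the brightest such probe. Of the gene names, 13430 equalled a RefSeq symbol (GRCm38.p6), 8112 were updated through 1 synonym and 9948 were kept as given. Slc6a20b was reached by a synonym. Means of the 4 groups were estimated by limma in 1 fit to 12 arrays (8 residual and 5.08 prior degrees of freedom), with Benjamini-Hochberg adjustment over 10597 genes. The fit was tested on simulated data. Alternatives are listed at the end. Values on all arrays are given for members called with a log2 difference of at least 1 in a comparison, and for Slc3a2 and Slc7a5; Slc7a1 and Slc7a11 were not detected. At most 5 called genes per list are named, from those with the largest BMP4 difference; Atf4 was chosen after its values were seen. Members and lists were chosen with earlier results of these data known.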

Additional observations from a re-analysis of the deposited data

How the results depend on the processing

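The settings changed in turn were background correction (none), offset (50), normalization (scale), detection filter (none, or 6 arrays), probes (their mean), samples (compared groups alone), array weights, replicate block and each of the 12 arrays left out; the second-brightest kept probe was added after the data were seen. The processed table was not run as an alternative, since no table used here links its probes to genes. No call among the 19 genes changed sign; for Slc38a2, not called in sorted against unsorted cells (-0.15), the mean of its probes gave 0.30 and the second-brightest probe 0.75, both called, because its 2 probes disagree. Of 13 calls for BMP4, 11 held under every alternative that tested the gene (not Slc3a2 and Slc38a2), of 6 between the fractions 2 did (Slc38a5, and Slc7a8, which passed the filter through 1 fraction alone), and of 13 for sorted against unsorted cells 12 did (not Slc6a19). Among the BMP4 calls that held, Slc7a9 and Slc6a9 passed the filter only through the side where they are high. In sorted against unsorted cells this was so for Slc7a3, Slc7a8, Slc36a1 and Slc36a3. The BMP4 call of Slc36a3 was made with both groups under the detection limit. Genes lower in GFP positive cells numbered 3 with the stricter filter, and genes higher in limma numbered 0 with that filter or scale normalization (1 in each at an unadjusted p under 0.05). The stricter filter removes Slc6a9, Slc6a19, Slc7a8 and Slc36a3 from the genes tested; for scale normalization the cause was not tested. Leaving out arrays gave 7 to 9 genes lower and 4 higher after BMP4, 3 to 5 lower and 0 to 1 higher in GFP positive cells, 9 to 10 higher and 3 to 4 lower in sorted cells, and 9 to 11 where both differences differed. Sorted cells had 5 genes lower with scale normalization, and the cause was not tested. With the replicate block the counts were 4 higher and 8 lower after BMP4, 1 higher and 5 lower in GFP positive cells, and 10 higher and 3 lower in sorted cells, and 11 where both differences differed; Slc3a2 was then not called after BMP4 (adjusted p = 0.0542). Same-numbered arrays share only a number: their deviations from group means correlated at -0.045 to -0.013 between untreated and BMP4 arrays and at -0.013 to 0.152 between the fractions. Signal over background limits Slc3a2, Slc6a19, Slc36a1, Slc36a3 and Slc38a4, whose means lie near the lowest detected signal. It also limits Slc38a5 outside untreated cells, with means of 5.73 after BMP4, 6.08 in GFP negative and 5.41 in GFP positive cells.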
